A study of Homo sapiens with 2 samples.

Results

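Among 5095 cardiomyocytes in a culture of human sinoatrial node-like pacemaker cells, 510 were set apart by high levels of KCNG1, AARD, MYLK, FREM2 and CXCL14. They were selected on these 5 transcripts alone, as the top 10% of cardiomyocytes by the mean of the log-transformed, depth-scaled count of each gene (a UMI, or unique molecular identifier, marks 1 captured RNA molecule). A cell counted as a cardiomyocyte when it had at least 1000 genes, at most 25% mitochondrial UMIs, at most 35000 RNA UMIs, at least 2000 CPM (UMI counts of the gene per 1e6 UMIs) of the cardiac troponin transcript TNNT2, and at most 4 UMIs of the epithelial genes VTCN1, GATA3, CLDN4 and WNT6 together. The 510 cells are called the MYLK-high cardiomyocytes here, after the most abundant of the 5 transcripts, and the remaining 4585 cells the other cardiomyocytes.

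The study differentiated the human embryonic stem cell line HES2 towards these cells, abbreviated SANLPC in the labels, and profiled 1 culture by CITE-seq, which reads the polyadenylated RNA and an antibody-bound DNA tag of the same cell. Live single cells were sorted with DAPI after an antibody to CD34 carrying a tag had been added, so the sort selected neither on CD34 nor on a cardiac marker. The 2 libraries hold the same 14829 cell barcodes, of which 11211 passed the filters on genes, mitochondrial UMIs and RNA UMIs. No other treatment, time or line was part of the series. Cells of 1 culture are not replicates, so no comparison below has a test. The 95% intervals given reflect only the number counted in this culture: molecules for CPM and ratios, cells for shares and medians. They do not cover variation between cultures. A gene is called higher or lower past a ratio of 1.5 in summed CPM, and is measured where the group with more of it reached 50 CPM. This filter can admit a gene only through the group where it is high, so counts of calls partly follow from the filter.

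Pacemaker cardiomyocytes of the sinoatrial node fire spontaneously and set the heart rate. They are built around the transcription factors SHOX2, TBX3, TBX18 and ISL1 and the pacemaker channel HCN4, and they keep the chamber programme of NKX2-5 low. Of the 5 transcripts that chose the cells, KCNG1 encodes a potassium channel subunit that forms no channel alone and modifies other potassium channels. MYLK encodes the kinase that phosphorylates the regulatory light chain of smooth muscle and nonmuscle myosin. FREM2 is a large protein of the FRAS1 complex, which ties epithelia to their basement membrane, and CXCL14 is a secreted chemokine. AARD encodes a protein rich in alanine and arginine.

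The 5 genes lie on different chromosomes of the RefSeq annotation of GRCh38.p14. KCNG1 spans 51003656 to 51023107 on chromosome 20, AARD 116938207 to 116944487 on chromosome 8, MYLK 123610049 to 123884332 on chromosome 3, FREM2 38687077 to 38887131 on chromosome 13 and CXCL14 135570679 to 135578991 on chromosome 5.

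The levels of the 5 transcripts describe the choice and are no finding. MYLK had 2507 CPM in the MYLK-high cells and 589 CPM in the other cardiomyocytes. FREM2 had 759 CPM in the MYLK-high cells and 267 CPM in the others. KCNG1 had 289 CPM in the MYLK-high cells against 41.5 CPM in the others, and AARD 282 CPM against 43.4 CPM. CXCL14, the rarest, had 86.0 CPM in the MYLK-high cells and 14.8 CPM in the others. In the 4205 TNNT2-low cells of the same culture (under 500 CPM of TNNT2), which held more KRT8 and KRT18 than the cardiomyocytes, CXCL14 reached 701 CPM, while KCNG1, AARD and MYLK had 3.94, 2.18 and 33.6 CPM. The other 4 transcripts were commoner in cardiomyocytes, and CXCL14 was commonest outside them.

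The choice cuts a continuum. The score of the lowest MYLK-high cell was 1.239 and that of the highest cell left outside 1.238, with 392 cells within 10% of the limit. The median score was 1.46 in the MYLK-high cells and 0.484 in the others. The 10 cells just inside the limit had a median of 21.5 MYLK UMIs and 8 FREM2 UMIs, and the 10 cells just outside had 17.5 and 9.5. Among the 510 cells, 134 had at least 1 UMI of all 5 transcripts, 269 of 4, 104 of 3 and 3 of 2. Of the 4585 others, 76 had all 5.

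The 5 transcripts were picked with earlier results of these data known. The values in this paragraph therefore describe the choice and are no independent support for it. Chosen on 4 of the transcripts, the cells still held more of the fifth. KCNG1 was then 4.29 times (4.05 to 4.54) the level in the remaining cardiomyocytes, AARD 3.36 times (3.17 to 3.57), CXCL14 2.64 times (2.36 to 2.95), FREM2 1.97 times (1.90 to 2.03) and MYLK 1.96 times (1.92 to 2.0). MYLK moved the choice most: without it, 335 of the 510 cells (65.7%) were chosen again, against 464 (91.0%) without CXCL14. When the cells were chosen on a random portion of their UMIs and measured on the UMIs not used, the ratios were 5.60 for KCNG1, 5.66 for AARD, 4.23 for MYLK, 2.58 for FREM2 and 5.70 for CXCL14, and 423 of the 510 cells (82.9%) were shared. Over the 4811 cardiomyocytes with at least 5000 UMIs, each thinned to 5000, a KCNG1 UMI was found in 31.6% (28.7 to 34.5) of the cells with an AARD UMI and in 16.7% (15.5 to 17.9) of those without. Unthinned, these shares were 50% and 29.4%. KCNG1 and FREM2 had the highest rank correlation of any pair over these thinned cells, 0.25, and AARD and CXCL14 the lowest, 0.035, all from 1 library.

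Only 178 of the 510 cells had a CXCL14 UMI. A cell without CXCL14 can pass the limit only through the other selecting transcripts, so the choice itself favours lower levels of those in the cells with CXCL14, and their levels are given as a description. The 178 cells with CXCL14 had 2018 CPM of MYLK and the 332 without had 2787 CPM, and AARD had 257 CPM with and 296 CPM without. TNNI3, which the choice did not use, was lower in the cells with CXCL14, at 91.3 CPM against 140 CPM (0.651). TBX2, at 80.2 CPM with and 59.8 CPM without, had a ratio of 1.34 and was not called. Not called either were MYL3, with 109 and 85.8 CPM (1.28), TAGLN, with 694 and 816 CPM (0.851), and MYH11, with 1350 and 1582 CPM (0.853). KCNG1, with 304 and 280 CPM, and FREM2, with 763 and 757 CPM, had ratios whose intervals included 1.

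MYLK is read here at its 3′ end, and that end is shared by 2 kinds of transcript. One encodes the full kinase, and the other starts inside the gene and encodes telokin, a short protein that corresponds to the kinase's C-terminal part and is known from smooth muscle. The MYLK promoter in the RefSeq table (GRCh38.p14, 250 bases before to 50 bases after the start) lies inside the gene, 10499 bases from the 3′ end of its 274284 bases. Counts of a 3′ library cannot tell the 2 transcripts apart. The sequence is shown with that of the downstream start of ACTA2, the smooth muscle actin gene whose level followed the score most closely, because promoters of smooth muscle genes are known for the CArG box, the binding sequence of serum response factor. Capitals mark 10-base matches to this box (CC, 6 bases of A or T, GG, which reads alike on both strands) with at most 1 differing letter.
MYLK, chr3:123620499-123620798, minus strand: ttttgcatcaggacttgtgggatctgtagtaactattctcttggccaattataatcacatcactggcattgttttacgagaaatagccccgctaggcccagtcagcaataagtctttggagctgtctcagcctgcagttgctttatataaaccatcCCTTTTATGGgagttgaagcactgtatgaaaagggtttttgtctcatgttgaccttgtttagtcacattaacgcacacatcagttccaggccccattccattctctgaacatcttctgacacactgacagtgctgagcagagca
ACTA2, chr10:88952724-88953023, minus strand: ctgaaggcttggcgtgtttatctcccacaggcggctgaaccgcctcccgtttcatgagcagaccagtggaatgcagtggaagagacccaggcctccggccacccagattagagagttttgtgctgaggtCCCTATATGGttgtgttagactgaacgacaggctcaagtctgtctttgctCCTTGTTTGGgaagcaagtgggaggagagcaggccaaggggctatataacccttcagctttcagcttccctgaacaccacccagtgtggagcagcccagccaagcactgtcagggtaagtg
The MYLK promoter held 1 exact box, CCTTTTATGG, beginning 94 bases before the start. The downstream ACTA2 promoter held no exact box and 2 with 1 differing letter, 121 and 71 bases before the start. The other ACTA2 promoter in the table held no box within 1 letter. An exact box was present in 454 of the 35116 promoters of the table (1.29%), and one within 1 letter in 6624 (18.9%). Of MYLK and the 8 genes of the smooth muscle list, 6 had a promoter in the table. They had 10 promoters, 3 with an exact box and 6 with a box within 1 letter. The LMOD1 promoter held 2 with 1 differing letter. Exact boxes also occurred in ACTG2 and in 1 of the SMTN promoters, and those genes were under 10 CPM in both groups (ACTG2 0.613 and 3.76 CPM, SMTN 6.99 and 9.19 CPM in the MYLK-high and other cells), while CNN1 held none. A match is a description of the letters only.

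Against the other cardiomyocytes, genes of smooth muscle contraction were higher in the MYLK-high cells. Of the 8 genes on the smooth muscle list, 6 passed the level filter and 5 of these were higher, with a median log2 ratio of 0.84 beside 0.065 over all 3249 genes measured. Over all those genes, 90 were higher (2.77%) and 71 lower (2.19%). TAGLN, which encodes the actin-binding protein transgelin, had 772 CPM in the MYLK-high cells and 290 CPM in the others, a ratio of 2.66 (2.58 to 2.73). MYH11, the smooth muscle myosin heavy chain, had 1498 CPM in the MYLK-high cells and 624 CPM in the others, a ratio of 2.40 (2.35 to 2.45). ACTA2 had 3786 CPM in the MYLK-high cells and 2103 CPM in the others (ratio 1.8, 1.78 to 1.82). The thin filament genes LMOD1 and CNN1 were higher by ratios of 1.79 and 1.6. LMOD1, with 84.9 and 47.5 CPM, passed the level filter only through the MYLK-high cells. MYOCD, the transcriptional coactivator of smooth muscle genes, was not called and had 138 CPM in the MYLK-high cells and 170 CPM in the others. PPP1R12B, a targeting subunit of the phosphatase that opposes the MYLK kinase, had 282 and 368 CPM, and PPP1R14A, an inhibitor of that phosphatase, was under the filter at 6.62 and 9.46 CPM.

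These genes were read widely in the cells, not in a few. After thinning to 5000 UMIs, MYH11 was found in 91.4% (88.6 to 93.7) of the MYLK-high cells and in 64.4% (63.0 to 65.9) of the others, and TAGLN in 81.0% (77.2 to 84.3) and 38.9% (37.4 to 40.3). Unthinned, the shares were 93.7% and 75.2% for MYH11 and 92.9% and 56.7% for TAGLN. In the TNNT2-low cells, MYH11 was found in 8.41% of thinned cells, while TAGLN was found in 54.2%, so TAGLN was also common outside cardiomyocytes. The median RNA depth was 15541 UMIs in the MYLK-high cells and 15839 UMIs in the others. Of 17 genes of smooth muscle and nonmuscle myosin and its regulators, 16 were measured and 3 were higher, MYH11, MYH9 (1.56) and the tropomyosin TPM4 (1.51), with a median log2 ratio of 0.23. MYH9, with 51.6 and 33.1 CPM, passed the level filter only through the MYLK-high cells. The TPM4 call held under 11 of 24 other settings and the MYH9 call under 17, and both were lost with cells weighted to equal clusters (1.32 and 1.39).

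Part of this pattern came with MYLK itself. When the cells were chosen on the other 4 transcripts, MYH11 and TAGLN still passed 1.5-fold, with ratios of 2.14 and 1.87, and ACTA2, LMOD1 and CNN1 did not, with 1.46, 1.24 and 1.2. Under the stricter cell filter, LMOD1 and CNN1 also missed it.

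**Figure D1:**
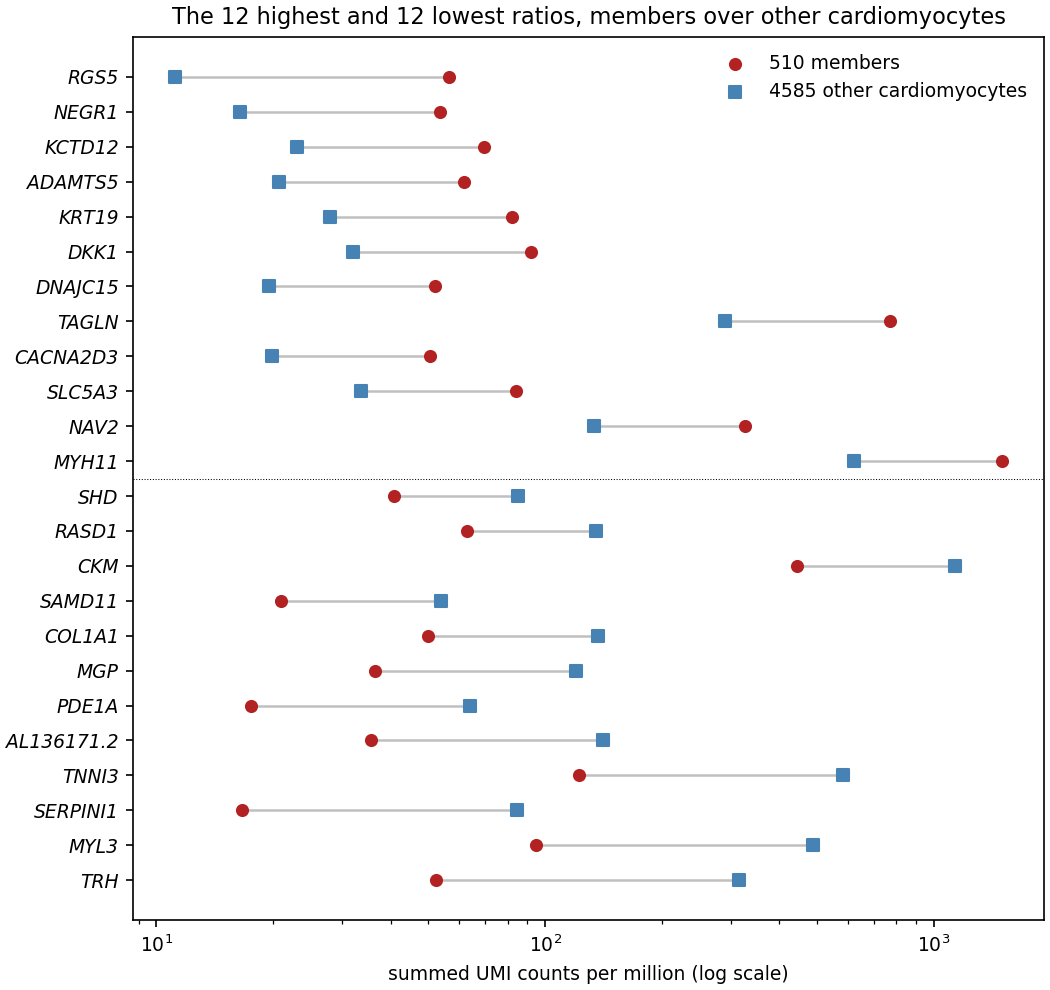
Summed CPM (log axis) in the 510 MYLK-high cells (members, red circles) and the 4585 other cardiomyocytes (blue squares) for the 12 genes with the highest and the 12 with the lowest ratio, the 5 selecting transcripts left out. The dotted line separates the 2 sets; RGS5 stands at 56.5 and 11.1 CPM at the top and TRH at 52.3 and 314 CPM at the bottom.

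The highest ratio belonged to RGS5, a regulator that speeds the switching off of G protein signals. It had 56.5 CPM in the MYLK-high cells and 11.1 CPM in the others, a ratio of 5.07 (4.52 to 5.69), and was found in 19.4% and 4.57% of thinned cells (43.1% and 12% unthinned), beside 5.26% of thinned TNNT2-low cells, so the share in the other cardiomyocytes was no higher than that background. The cell adhesion gene NEGR1 followed at 3.27, then KCTD12 (3.04), whose protein is a subunit of GABA-B receptors, ADAMTS5 (2.99), a protease that cleaves aggrecan and versican, and DKK1 (2.87), a secreted WNT antagonist with 92.0 and 32.1 CPM. CACNA2D3, a calcium channel subunit, stood at 2.55, NAV2 at 2.45, DNAJC15 at 2.66 and the myo-inositol transporter SLC5A3 at 2.50. SLC5A3 overlaps MRPS6, whose reads may be shared with it. All of these kept a ratio over 1.5 under every one of 24 other settings except CACNA2D3 and SLC5A3, which fell short when cells were weighted to the same clusters (1.47 and 1.38). Of the genes in this paragraph, only NAV2 reached 50 CPM in the other cardiomyocytes. The rest passed the level filter through the MYLK-high cells alone.

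KRT19 was the one keratin among the highest ratios. It had 81.9 CPM in the MYLK-high cells and 28 CPM in the others (2.93, 2.68 to 3.19), and 1137 CPM in the TNNT2-low cells. Among the cardiomyocytes, KRT19 passed the level filter only through the MYLK-high cells. The other measured epithelial genes, EPCAM, KRT8 and KRT18, had ratios of 1.26, 1.15 and 1.17. VTCN1, GATA3, CLDN4 and WNT6, which the choice of cardiomyocytes had limited, summed to 21.5 CPM in the MYLK-high cells and 23.7 CPM in the others, and to 1335 CPM in the TNNT2-low cells. With every cell that held a UMI of those 4 genes left out, the KRT19 ratio was 3.06. As a mean over cells, which gives shallow cells more weight, it was 2.02.

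Secreted regulators of cardiac patterning were also among the higher genes. BMP4 had 458 CPM in the MYLK-high cells and 202 CPM in the others, a ratio of 2.27 (2.19 to 2.35). Of the 15 genes of the BMP list, 10 were measured, BMP4 and the pseudoreceptor BAMBI (1.63) were higher and BMP7 (0.63) was lower, and the list's median log2 ratio was 0.38. BMP5 had 377 and 253 CPM (1.49), BMP2 79.6 and 56.6 CPM (1.41), and the BMP target ID1 407 and 297 CPM (1.37). TBX2, a repressor of chamber genes known from the atrioventricular canal, had 67.2 and 31.3 CPM (2.15) and was the 1 higher gene of 3 measured on the atrioventricular node list. It passed the level filter only through the MYLK-high cells, as did DKK1 and HES1. DKK1 and SFRP5 (1.5) were the higher genes of 4 measured on the WNT list. The retinaldehyde dehydrogenase ALDH1A1 was higher (2.02, 390 and 194 CPM). HES1, a Notch target, stood at 1.90 and the chemokine CXCL12 at 1.59, the single measured gene of the chemokine list. SFRP5 passed the limit under 16 of the 24 other settings and was on the other side when the cells were chosen without MYLK, at a log2 ratio of -0.11. With cells weighted to equal clusters, BMP4 (1.40), BAMBI (1.25), ALDH1A1 (1.36), HES1 (1.48), CXCL12 (1.22) and SFRP5 (1.45) missed 1.5-fold. DKK1 (1.81) and TBX2 (1.57) still passed it. With a summed score, TBX2, BAMBI and CXCL12 fell short. CXCL12 also stayed within 1.5-fold against the other cardiomyocytes with a TBX3 UMI (1.35). Against the cells highest for MYL3, CAPN3 and LRRTM3, the CXCL12 ratio was 1.11.

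The 12 lowest ratios included TRH and the muscle genes MYL3, TNNI3 and CKM. TRH, which encodes a hormone precursor, had 52.3 CPM in the MYLK-high cells and 314 CPM in the others, a ratio of 0.166 (0.151 to 0.183). MYL3, a myosin light chain of ventricle and slow muscle, had 94.5 CPM in the MYLK-high cells and 487 CPM in the others, a ratio of 0.194. TNNI3, the adult cardiac troponin I, had 122 CPM in the MYLK-high cells and 583 CPM in the others, a ratio of 0.210 (0.197 to 0.224), whereas the fetal isoform TNNI1 had 1789 and 1567 CPM, a ratio of 1.14. The muscle creatine kinase CKM had 443 and 1133 CPM (0.391). SERPINI1 (0.195), the phosphodiesterase PDE1A (0.274), AL136171.2 (0.253), SAMD11 (0.390), RASD1 (0.465) and SHD (0.479) completed the set with MGP (0.305) and COL1A1 (0.366). These last 2 matrix genes had 424 and 1052 CPM in the TNNT2-low cells, and both stood on the other side when the selecting score was a plain sum. SERPINI1, PDE1A, AL136171.2, SAMD11, SHD, MGP and COL1A1 passed the level filter only through the other cardiomyocytes.

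Apart from TNNI3, the genes of the sarcomere list stayed within 1.5-fold of the other cardiomyocytes. All 13 genes of the sarcomere list were measured, TNNI3 alone was called, and the median log2 ratio was -0.29. TNNT2 had 5895 and 7189 CPM, TTN 6729 and 8607 CPM, and MYH6 7293 and 7135 CPM in the MYLK-high and other cells. Of 9 measured calcium handling genes, 3 were lower: HRC (0.50), a calcium-binding protein of the sarcoplasmic reticulum, the release channel RYR2 (0.59) and the calcium pump inhibitor PLN (0.62). The pump itself, ATP2A2, had 2344 and 2362 CPM. None of 14 oxidative phosphorylation genes was called, and each had a ratio under 1, from 0.81 to 0.98. The median mitochondrial share was 10.1% of UMIs in the MYLK-high cells and 12.4% in the others.

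**Figure D2:**
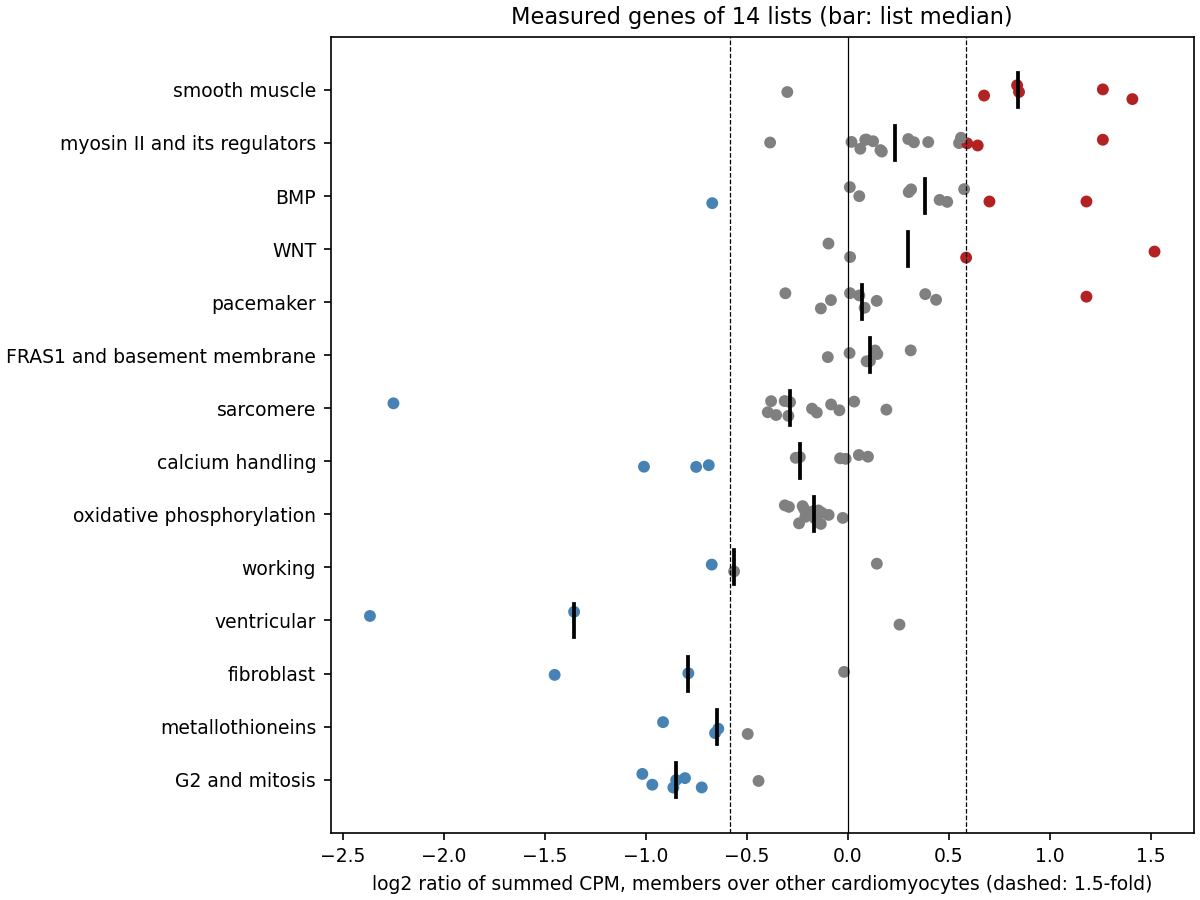
Each point is 1 measured gene of a list, placed by its log2 ratio of summed CPM in the MYLK-high cells over the other cardiomyocytes, and black bars are list medians. Red points are higher and blue points lower past 1.5-fold (dashed lines): 5 of 6 smooth muscle genes lie to the right, and 6 of 7 genes of G2 and mitosis to the left.

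The pacemaker markers were present and differed little. SHOX2 had 604 CPM in the MYLK-high cells and 547 CPM in the others (1.10), TBX18 95.9 and 90.5 CPM (1.06), ISL1 74.5 and 71.6 CPM (1.04) and HCN4 94.0 and 103 CPM (0.91). TBX3 had 251 and 192 CPM (1.3, 1.24 to 1.37), and in the TNNT2-low cells 78.8 CPM. Of 12 pacemaker markers, 10 were measured, BMP4 alone was called, and the median log2 ratio was 0.07. NKX2-5 was under the level filter, with 23 UMIs or 2.82 CPM in the MYLK-high cells against 29.4 CPM in the others. The label pacemaker-like therefore describes the markers the cells carry, but these markers do not set them apart from most cardiomyocytes of the culture. The acetylcholine receptor gene CHRM2 (1.34) and the calcium channel CACNA1D (1.35) were not called, and KCNJ5, which encodes part of the potassium channel opened by that receptor, was (1.63, 63.2 and 38.8 CPM). KCNJ5 passed the level filter only through the MYLK-high cells. The KCNJ5 call held under 18 of 24 other settings, and its ratio was 1.02 with a summed score and 1.08 with cells weighted to equal clusters. Against the other cardiomyocytes with a TBX3 UMI it was 1.28, and against the cells highest for MYL3, CAPN3 and LRRTM3 0.835, neither past 1.5-fold. With MYLK out of the choice, TBX3 and CACNA1D passed 1.5-fold too, at log2 ratios of 0.75 and 0.63.

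Genes of G2 and mitosis were lower in this comparison, a call that rested on the settings. Of 7 measured, 6 were lower, among them MKI67 with 80.6 CPM in the MYLK-high cells and 147 CPM in the others (0.55) and CENPF (0.49). The share of cells with at least 3 UMIs of cycling genes was 20% and 21.4%. With those cells left out, no gene of the list that passed the level filter was lower. TOP2A stayed past 1.5-fold but did not pass that filter there. The cells left out were defined by MKI67, TOP2A, CENPF, UBE2C and CDK1, all on the list, so this setting removes calls partly by its own choice. Without cluster 5, and with cells chosen without MYLK, no measured gene of the list was lower either. The 4 measured S phase genes had ratios from 0.78 to 1.02. Of 4 measured metallothioneins, which bind zinc, MT1G (0.53), MT1E (0.63) and MT2A (0.64) were lower, and none of them when the cells were chosen without MYLK.

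Markers of other cell types were checked in the same cells. Of the fibroblast list, COL1A1 and PDGFRA (0.58) were lower and COL3A1 had 196 and 199 CPM, beside 3254 CPM in the TNNT2-low cells, while POSTN, under the level filter, had 48.9 and 15.2 CPM. No epicardial gene was measured, and the 7 summed to 21.3 and 30.1 CPM. Of the endothelial genes, PECAM1, CDH5, TEK and CLDN5 had 0 counts in the MYLK-high cells, and so did the blood genes PTPRC, HBG1 and HBZ and the neural gene SOX10. A count of 0 allows up to 0.368 CPM in these cells. The FRAS1 partner genes of FREM2 and the basement membrane gave 7 measured genes and no call, with FRAS1 itself at 72.6 and 65.6 CPM. The 6 measured immediate early genes, which dissociation can induce, had no call and a median log2 ratio of 0.34. A doublet caller marked 1.76% (0.81 to 3.32) of the MYLK-high cells and 3.45% (2.94 to 4.02) of the others.

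Some of these genes were also read along the score. Several changed across its range, and others mainly in the last bins. The bins are cut by the score that chose the cells, so such trends are partly built in. With the cardiomyocytes cut into 10 bins of equal size from low to high score, ACTA2 was at 1036 CPM in the first, 1885 CPM in the fifth and 3781 CPM in the last, and TAGLN at 85.5, 204 and 772 CPM. MYL3 ran the other way, at 907, 430 and 94.2 CPM, and so did CKM, at 1662, 1113 and 441 CPM. SHOX2 changed less, at 451, 568 and 605 CPM. RGS5 was at 9.73 CPM in the first bin, 4.30 CPM in the third, 22.9 CPM in the ninth and 56.6 CPM in the last. KRT19 was between 19.0 and 34.6 CPM in the first 9 bins and 81.8 CPM in the last. MKI67 was between 121 and 166 CPM in the first 9 bins and 80.7 CPM in the last.

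**Figure D3:**
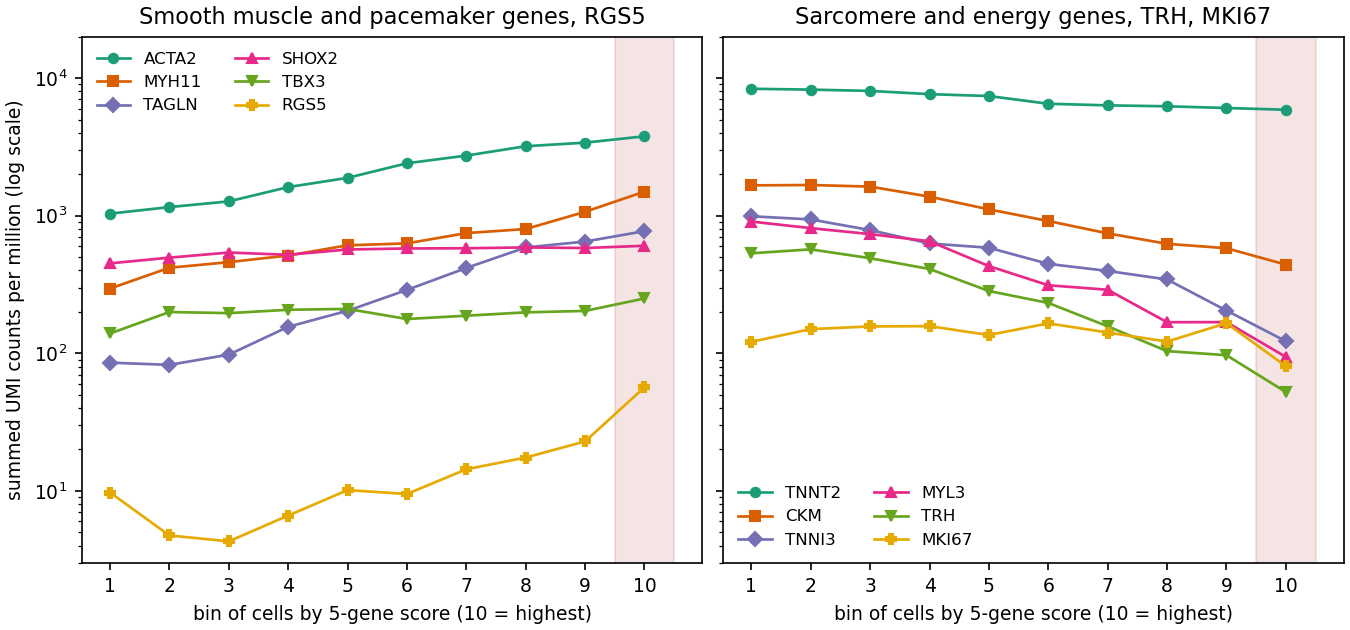
Summed CPM (log axis) of 12 genes in 10 bins of the 5095 cardiomyocytes ordered by the selecting score; the shaded bin holds 509 cells, nearly the same as the 510 MYLK-high cells. ACTA2 and TAGLN climb and MYL3 and TRH descend across the range, RGS5 is lowest in the third bin and higher in the last bins, and MKI67 differs mainly in the shaded bin.

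The genes most like the score were also read cell by cell. The score is made of the transcripts that chose the MYLK-high cells, so a likeness to the ratios above is partly built in. The correlations are therefore no independent support for those ratios. The score includes MYLK, and no correlation with a score lacking it is given here. With MYLK out of the choice, the ACTA2 ratio was 1.46. Over the 4811 thinned cells and 3027 genes, the highest rank correlations with the score were those of ACTA2 (0.53), TAGLN (0.45), MYH11 (0.32), HEBP2 (0.32), the myosin light chain MYL6 (0.32), BMP4 (0.30), the actin-binding caldesmon gene CALD1 (0.29) and ANXA2 (0.29). The most negative were CKM (-0.42), TNNI3 (-0.38), TRH (-0.38) and CRYAB (-0.33). These are descriptions within 1 library at equal depth.

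Clusters made without the 5 transcripts placed the MYLK-high cells unevenly. Cluster 5, a group of 367 cells led by MT3, ARFGEF3, SPTLC3 and RGS5, held 201 of them, which is 39.4% (35.1 to 43.8) of the MYLK-high cells against 3.62% (3.1 to 4.2) of the others. Cluster 3, led by SFRP5, ANGPT1 and FOXC1, held 17.8% of the MYLK-high cells and 9.36% of the others. The NKX2-5 and LMOD2 cluster, numbered 2 with 176 cells, held none, and neither did cluster 7 with 144 shallow cells, so each may hold at most 0.72% of them. Within cluster 5, TAGLN had 923 CPM in the MYLK-high cells and 479 CPM in the others, past 1.5-fold. MYH11, with 1724 and 1252 CPM, and ACTA2, with 3759 and 2913 CPM, stayed within 1.5-fold there. TBX3 was on the other side, with 314 CPM in the MYLK-high cells and 388 CPM in the others. Without cluster 5, RGS5 kept a ratio of 4.67, TAGLN 2.38, BMP4 2.04 and TNNI3 0.258, and with cells weighted to equal clusters the ratios were 2.87, 2.07, 1.40 and 0.336. That weighting left 23 genes higher and 17 lower, so fewer genes differed once the cluster of origin was held equal. RGS5, SLC5A3, KCTD12 and NEGR1 are also leading genes of cluster 5.

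**Figure D4:**
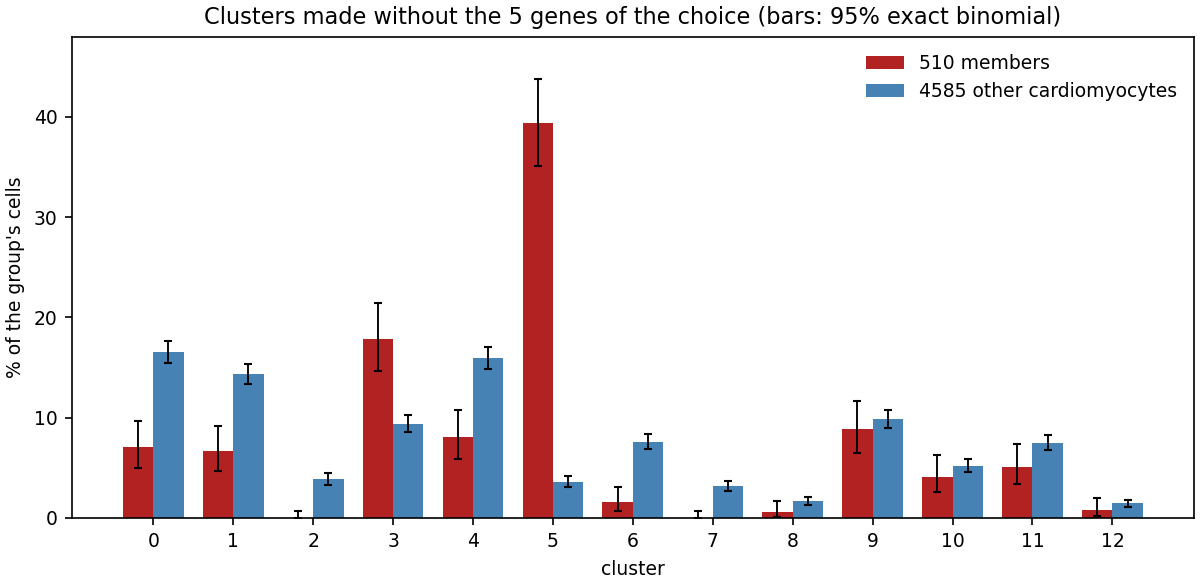
Share of the 510 MYLK-high cells (members, red) and of the 4585 other cardiomyocytes (blue) in each of 13 numbered clusters, with exact binomial intervals that treat cells as the sampled units. Cluster 5 holds 39.4% of the MYLK-high cells and 3.62% of the others.

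Cells with a TBX3 UMI made a closer comparison. A TBX3 UMI was present in 398 of the MYLK-high cells (78.0%) and in 2867 of the other cardiomyocytes (62.5%), unthinned. Against those 2867 cells, 92 genes were higher (2.83%) and 77 lower (2.37%) of 3251 measured. The smooth muscle list again gave 5 higher of 6 measured, with TAGLN at 3.43, LMOD1 at 2.02, ACTA2 at 1.99 and MYH11 at 1.91, and RGS5 had the highest ratio, 4.55. LMOD2, a thin filament gene of cardiac muscle, had the lowest, with 2.58 CPM in the MYLK-high cells and 52.5 CPM in the TBX3-positive others (0.049). All 4 measured metallothioneins were lower. These comparisons share the MYLK-high cells and most of the others, so they are not independent.

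The cells highest for MYL3, CAPN3 and LRRTM3, chosen by the same kind of score, carried the highest TBX3 of the groups compared, and this comparison gave the most calls. The 2 sets of 510 shared 2 cells, which were left out. Of 3272 genes, 232 were higher (7.09%) and 111 lower (3.39%) in the MYLK-high cells. With each ratio divided by the median ratio, the counts were 184 and 142. ADAMTS5 had 61.9 CPM in the MYLK-high cells and 2.21 CPM in the MYL3-high cells, and TAGLN 774 and 86.7 CPM (8.93). ACTA2 had 3786 and 1297 CPM (2.92), and TBX2 67.5 and 15.6 CPM (4.33). All 7 measured genes of the matrix list were higher, with a median log2 ratio of 1.21, among them COL3A1 with 196 and 58.6 CPM (3.35) and SPARC with 120 and 59.8 CPM (2.01). COL1A2 (3.96), COL6A2 (2.31) and FN1 (2.05) passed the level filter only through the MYLK-high cells. Against all the other cardiomyocytes, 9 genes of this list were measured, of which 0 were higher and 3 lower. The 16 genes of that list summed to 1245 CPM in the MYLK-high cells, 492 CPM in the MYL3-high cells and 11513 CPM in the TNNT2-low cells, and the part of other cells' RNA in this was not tested. NKX2-5 had 2.83 CPM in the MYLK-high cells and 53.2 CPM in the MYL3-high cells, and TBX3 had 251 and 486 CPM (0.516). Of the 13 sarcomere genes, 7 were lower, TNNI3, TNNC1, TNNT2, TTN, ACTN2, MYBPC3 and MYL4, and the 4 measured metallothioneins were lower too, with MT2A at 305 and 1032 CPM. The mitotic genes TOP2A (1.55) and CENPF (1.51) were higher here.

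The CD34 antibody tag, which took no part in the choice, was slightly higher in the MYLK-high cells. Its median was 109.5 UMIs per cell (90 to 126) in the MYLK-high cells and 80 (77 to 84) in the other cardiomyocytes, a ratio of 1.37, or 1.19 when tag UMIs were scaled to each cell's RNA UMIs. The middle 50% of cells ran from 51 to 340 UMIs in the MYLK-high cells and from 43 to 259 in the others, so the groups overlapped broadly. The share of cells over 281 tag UMIs, the 99th percentile of the TNNT2-low cells, was 29.0% (25.1 to 33.2) in the MYLK-high cells and 24.1% (22.9 to 25.4) in the others. It was 34.9% in the TBX3-positive others and 46.9% in the MYL3-high cells, whose median tag counts were 144 and 246. The CD34 transcript had 7.97 CPM (6.15 to 10.2) in the MYLK-high cells and 7.83 CPM (7.21 to 8.50) in the others, a difference within counting error. Chosen without MYLK, the cells had a tag ratio of 1.90, and chosen by a plain sum, 1.09.

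**Figure D5:**
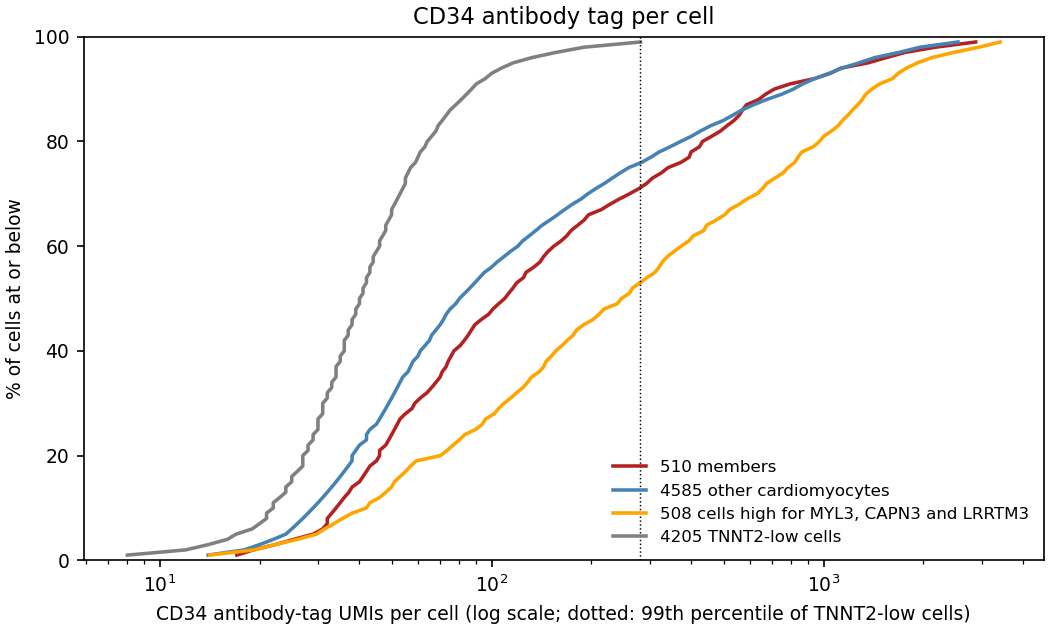
Cumulative share of cells (vertical axis, %) by CD34 antibody-tag UMIs per cell (log axis) for the 510 MYLK-high cells (members), the other cardiomyocytes, the 508 MYL3-high cells and the TNNT2-low cells. The dotted line is the 99th percentile of the TNNT2-low cells, which 29.0% of the MYLK-high cells and 46.9% of the MYL3-high cells exceed.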

How the data were processed

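RNA and CD34 antibody-tag libraries of the same cells were analysed as deposited: whole-number UMI counts per feature and cell barcode, made by the authors with Cell Ranger 6.1.2 on GRCh38, per the submitters' processing notes, with 10x Genomics 3′ v3 chemistry per the labels' protocols. The deposited counts are not normalized. Sums over cells were divided by the group's total and given as CPM. Ratios carry exact conditional binomial intervals and CPM exact Poisson intervals, both for counting error of molecules only. Shares carry exact binomial (Clopper-Pearson) intervals and the tag median an interval from the ordered values of the cells. Both of these treat cells as the sampled units and do not cover variation between cultures. The MYLK-high cells held 8152465 RNA UMIs in all and the other cardiomyocytes 73651439.

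Members and gene lists were chosen with earlier results of these data known. Genes were named by rule: the 12 highest and 12 lowest ratios against the other cardiomyocytes, 6 each way in the 2 other comparisons, the genes of the lists, and the 8 most correlated. MT-, RPL and RPS genes, CD34 and the selecting genes stayed out of the ranking. Clustering (Scanpy 1.11.5) used 2000 variable genes, 30 components, 15 neighbours and Leiden resolution 0.8, leaving the selecting genes out. Doublets marked by Scrublet (1401 of 12119 barcodes, 11.6%) were kept, and left out as an alternative. The ratio step was tested on simulated data. Python 3.11.15, NumPy 2.4.6, SciPy 1.17.1 and pandas 2.3.3 were used. Promoters and positions came from RefSeq tables. There were no replicates, so no test was run. All groups compared come from the same culture, and whether a difference between them would recur in another culture cannot be told. Some genes of the lists are not reported here.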

Additional observations from a re-analysis of the deposited data

How the results depend on the processing

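The named genes' ratios against the other cardiomyocytes, the counts of calls, the list counts and the tag ratio were recomputed under 24 other settings, 3 of them added after seeing the data (cells with an epithelial UMI, cluster 5, or shallow clusters left out). Of 59 named genes past 1.5-fold, 22 passed it under every setting, and 9 of 1416 gene values changed direction. With a summed score, the log2 ratio was 0.19 for COL1A1, 0.77 for COL1A2, 1.98 for MGP and 0.25 for NPPA. With cycling cells left out it was 0.081 for CENPF, 0.27 for MKI67 and 0.19 for UBE2C. Chosen without MYLK, SFRP5 was at -0.11, and without FREM2, MGP was at 0.20. The cause of these changes was not tested, except that leaving out cycling cells removes the cells that hold mitotic transcripts.

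Of 289 summary values, 35 moved. A floor of 10 CPM measures more genes and gave 247 higher and 244 lower against the other cardiomyocytes, 270 and 223 against those with a TBX3 UMI, and 789 and 272 against the MYL3, CAPN3 and LRRTM3 group; a floor of 200 CPM gave 26 and 24, 25 and 21, and 61 and 41, with 1 mitotic gene lower. Weighting to equal clusters gave 23 higher and 17 lower, 27 and 21 against the TBX3 cells, 1 calcium handling gene lower, 0 mitotic genes or metallothioneins lower and 0 pacemaker genes higher. The top 20% gave 46 lower genes, 47 against the TBX3 cells, and 0 mitotic genes lower. Choosing on thinned cells left 2 mitotic genes and 1 metallothionein lower. Cycling cells or cluster 5 left out gave 0 measured mitotic genes lower. The stricter filter (2000 genes, 15% mitochondrial UMIs) left 3 smooth muscle genes higher. Chosen without MYLK, 2 smooth muscle and 3 pacemaker genes were higher, 0 mitotic genes and 0 metallothioneins were lower, and the CD34 tag ratio was 1.90; a summed score gave a tag ratio of 1.09. Dividing by the median ratio gave 73 higher and 85 lower genes, where the main counts were 90 and 71. No paired analysis was possible because the series holds 1 culture and no replicate.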

Other observations

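Genes outside the lists were looked up after their values were seen. Some actin-binding genes past 1.5-fold were picked out for their values: ACTN1 had 129 CPM in the MYLK-high cells and 72.0 CPM in the other cardiomyocytes (1.79), PLS3 75.9 and 44.9 CPM (1.69), PDLIM1 68.1 and 41.8 CPM (1.63) and SYNPO2 135 and 85.9 CPM (1.58). ACTN1, PLS3 and PDLIM1 were more abundant in the TNNT2-low cells, at 187, 318 and 418 CPM. The actin-binding genes CALD1, FLNA and CNN2 of the myosin regulator list were not called, at 1.47, 1.47 and 1.25. The transcription factor genes FOXC1 (52.1 and 24.3 CPM) and PRDM6 (66.1 and 33.6 CPM), which encodes a repressor known from smooth muscle, had ratios of 2.15 and 1.97. BVES and POPDC3, of the Popeye family of cyclic AMP-binding membrane proteins, stood at 1.82 and 1.61. The core cardiac factors were close: GATA4 had 96.7 and 93 CPM, GATA6 334 and 337 CPM, and HAND2 174 and 162 CPM.

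RGS5 is known as a marker of pericytes, so other pericyte genes were read beside it. PDGFRB had 1.10 CPM (9 UMIs) in the MYLK-high cells and 2.44 CPM in the others, CSPG4 0.859 and 1.63 CPM, HIGD1B 0.368 and 0.285 CPM, and ABCC9 22.2 and 29.7 CPM. NOTCH3 (8.10 and 5.13 CPM), KCNJ8 (19.9 and 15.1 CPM) and MCAM (30.2 and 24.4 CPM, ratio 1.23) were under the level filter as well. TNNT2 was present in every MYLK-high cell by the choice of cells.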
